A study of Mus musculus with 18 samples.

Results

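The genes described here are the signalling genes of the transforming growth factor-β (TGF-β) and bone morphogenetic protein (BMP) families: the ligands, the proteins that hold them latent or process them, the receptors, the extracellular antagonists, the Smads and their regulators, and the *Id* genes. They were chosen by symbol from a list of 55 names, with no cut on a measured value. The list itself was drawn up with earlier results of these data known. All 55 were found among the 35275 genes of the count table. RNA-seq measured them in cell lines from mouse malignant peripheral nerve sheath tumors (MPNST), sarcomas of the nerve sheath. The comparison was between 2 genotypes, with 3 lines of each and 3 cultures of each line. Tumors had been raised in wild-type 129 Sv/Jae mice by injecting the sciatic nerve with an adenovirus that carried guide RNAs and Cas9 under the CMV promoter, which is not specific to a cell type, and the cells that were edited are not given in the sources used here. Lines of the first group had lost *Nf1* and *p53* (Nf1-/-;p53-/-, called *Nf1*/*p53* dKO, for double knockout) and those of the second *Nf1* and *Cdkn2a* (called *Nf1*/*Cdkn2a* dKO), so both groups lack *Nf1*. All cultures were untreated and grown in DMEM with serum, which itself contains TGF-β family ligands. Each line came from its own tumor, and the ages of the animals are not given in the sources used here.

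Ligands of this family bind pairs of type I and type II receptor kinases at the cell surface. The TGF-β and activin branch passes the signal to Smad2 and Smad3, and the BMP branch passes it to Smad1, Smad5 and Smad9. Both use Smad4 as the shared partner in the complexes that act in the nucleus. TGF-β is secreted in a latent form bound to LTBP proteins in the matrix. Follistatin traps activins, while Gremlin, Noggin and Chordin trap BMPs. The inhibitory Smads, Smad6 and Smad7, are induced by the pathway and close a negative feedback loop, and the *Id* genes are direct targets of BMP-activated Smads. In peripheral nerve, TGF-β is known for its part in Schwann cell growth and matrix deposition.

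Library totals were 19560535 to 28312207 counts (median 23149777), and summing the 3 cultures of each line gave 65206479 to 73065228. The line is the unit of replication, because its cultures share a tumor, and the tests read these 6 sums. Levels are given in CPM, reads scaled to a common library size with a correction for library composition (TMM, from edgeR). *Trp53*, the mouse p53 gene, ran from 58.7 to 94.1 CPM in the lines meant to lack it and from 185 to 247 CPM in the others, whereas *Cdkn2a* (42.9 to 363 against 169 to 391.6 CPM) and *Nf1* (27.7 to 70.0 against 12.7 to 38.3 CPM) overlapped. Those levels count all transcripts of a gene and do not read the edited sequence. *Vim*, a mesenchymal marker that fits the label of the cells, was at 4727 CPM or more in every line, but *Sox10*, which defines Schwann cells, was at most 0.0990 CPM. Summed muscle progenitor markers (7 genes) ran from 53.9 to 416.6 CPM in *Nf1*/*p53* dKO lines and from 0.203 to 0.802 CPM in *Nf1*/*Cdkn2a* dKO lines, and summed Schwann cell markers (8 genes) from 3.57 to 74.8 and from 1.48 to 3.05 CPM. Summed endothelial markers (8 genes, 6 of them under 1 CPM in every line) ran from 1.70 to 2.57 against 1.25 to 2.32 CPM, summed leukocyte markers (8 genes, 6 under 1 CPM) from 3.90 to 7.72 against 6.69 to 8.28 CPM, and summed fibroblast markers (6 genes) from 449.9 to 1549 against 128 to 1333 CPM. The muscle progenitor and Schwann cell sums did not overlap between genotypes. Gene by gene, all 4 tested muscle genes were lower in the *Nf1*/*Cdkn2a* dKO without overlap, whereas all 6 tested Schwann cell genes overlapped. The part of these markers in the results below was not tested. In bulk samples such as these, fewer cells that express a gene and less RNA per cell cannot be told apart.

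Of the 55 genes, 48 had enough counts to be tested and 7 did not. *Bmpr1b*, a type I BMP receptor, was the 1 member that passed an adjusted p of 0.05, and it was lower in the *Nf1*/*Cdkn2a* dKO. Over all 15207 genes tested, 1.80% passed in either direction and 1.16% were lower. Without adjustment, 8 members lay higher and 4 lay lower at p under 0.05, beside 9.81% and 12.5% of all genes. The 3 lines of one genotype lay wholly above those of the other for 8 members and wholly below for 5, beside 14.8% and 16.6% of all genes. As shares of the 48 tested members, these counts were 2.08% for the 1 called, 16.7% higher and 8.33% lower without adjustment, and 16.7% above and 10.4% below without overlap. The share higher without adjustment was the furthest above its background, and the other shares were close to theirs or under it. The members' median log2 fold change was 0.08 beside −0.02 over all genes, or −0.05 beside −0.16 when libraries were scaled by their raw totals. A positive log2 fold change is a higher level in the *Nf1*/*Cdkn2a* dKO throughout, with adjusted p from edgeR's quasi-likelihood test and Benjamini-Hochberg adjustment over all genes. With 3 lines a side, exact permutation has a smallest p of 0.1, so single genes are tested only by this model.

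**Figure D1:**
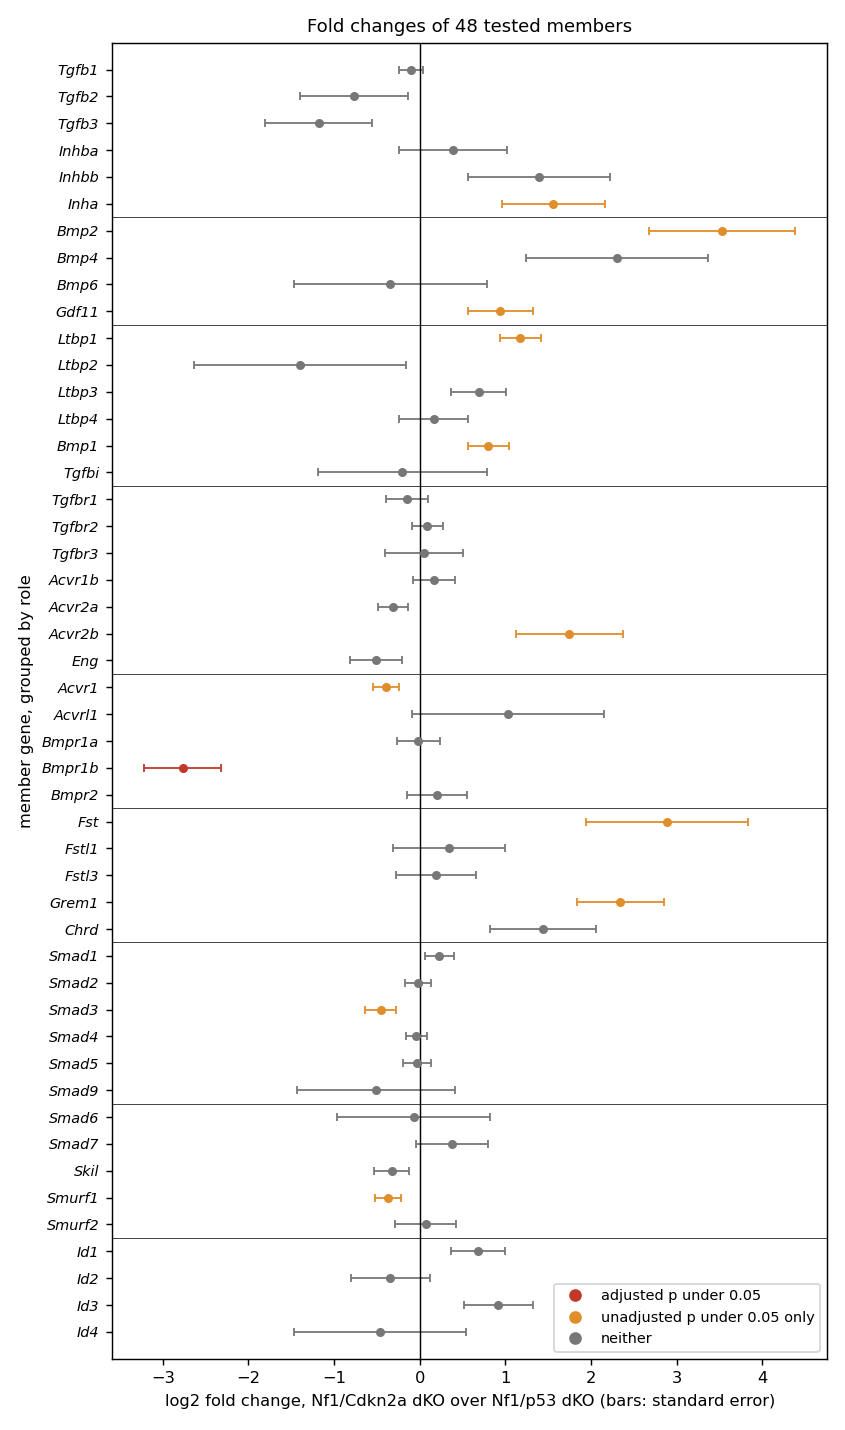
Log2 fold change of each of the 48 tested members (x axis, *Nf1*/*Cdkn2a* dKO over *Nf1*/*p53* dKO, bars give the standard error), with genes grouped by role on the y axis. *Bmpr1b* at −2.77 is the single red point, 11 further members passed without adjustment only (orange), and *Smad2*, *Smad4* and *Smad5* sit close to 0.

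The 5′ sequences of *Bmpr1b*, of *Grem1*, the member with the highest level per length, and of *Smad9*, the BMP-branch Smad that differed most between lines, are shown because the results below turn on these genes. Each is the run of 250 bases before a RefSeq transcript start in GRCm38.p6, written 5′ to 3′ on the strand of the gene. Capitals mark GGCGCC, a motif that Smad complexes are known to bind in BMP-responsive genes. The *Bmpr1b* window (minus strand, chr3:141982265-141982514) is the farthest upstream of the 3 in the RefSeq set used. It lies in an intron of the longer GENCODE gene model (chromosome 3, 141837136 to 142169425). The *Grem1* window (minus strand, chr2:113758649-113758898) and the *Smad9* window (plus strand, chr3:54755332-54755581) lie outside annotated genes, just ahead of their own.
Bmpr1b: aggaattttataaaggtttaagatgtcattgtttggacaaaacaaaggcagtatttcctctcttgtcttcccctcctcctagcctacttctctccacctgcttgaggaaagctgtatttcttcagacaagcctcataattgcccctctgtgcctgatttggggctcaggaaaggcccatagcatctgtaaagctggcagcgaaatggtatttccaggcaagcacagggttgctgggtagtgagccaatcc
Grem1: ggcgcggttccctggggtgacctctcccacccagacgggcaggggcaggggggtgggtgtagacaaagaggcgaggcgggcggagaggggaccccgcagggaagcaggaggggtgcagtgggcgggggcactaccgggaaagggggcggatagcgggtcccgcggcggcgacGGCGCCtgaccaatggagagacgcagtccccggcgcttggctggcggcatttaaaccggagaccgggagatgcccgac
Smad9: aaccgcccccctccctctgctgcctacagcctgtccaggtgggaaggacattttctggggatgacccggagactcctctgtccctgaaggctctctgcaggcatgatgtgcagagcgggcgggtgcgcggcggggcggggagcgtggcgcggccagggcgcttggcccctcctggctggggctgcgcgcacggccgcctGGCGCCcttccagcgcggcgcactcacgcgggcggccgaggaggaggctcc
GGCGCC occurred in the *Grem1* and *Smad9* windows and in none of the 3 for *Bmpr1b*. All 3 *Bmpr1b* windows lie inside its GENCODE gene model, and the 5′ end of that model, at 142169425, was not examined. RefSeq windows were matched for 39 of the 55 members, and 13 of their 47 windows (27.7%, some of them overlapping windows of one gene) held GGCGCC, as did 9.59% of 32851 windows of the same length over all genes. GTCTAGAC, the palindromic Smad3 and Smad4 binding motif, was in 0 member windows and in 0.167% of all windows. Both motifs read the same on either strand and do not overlap. *Bmpr1b* windows had a GC content of 46.8 to 56.4%, while *Grem1* had 72% and *Smad9* 73.2%. GGCGCC holds only G and C, and the GC content of all windows was not measured, so the shares are not matched for it. A match describes the letters in the window and was not tested for binding.

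Among the BMP receptors, *Bmpr1b* stood at 11.4, 20.7 and 14.96 CPM in *Nf1*/*p53* lines 1, 2 and 3 and at 1.68, 1.56 and 3.66 CPM in *Nf1*/*Cdkn2a* lines 1, 2 and 3. Every culture of the first genotype, from 10.1 to 22.5 CPM, lay above every culture of the second, from 0.977 to 4.19 CPM. The means were 15.7 ± 4.69 and 2.30 ± 1.18 CPM (SD, n = 3 lines), and *Bmpr1b* fell by 2.77 on the log2 scale (SE, the standard error, 0.45, edgeR adjusted p = 0.0465). The fold change stayed between −3.27 and −2.504 with any single line left out, but the adjusted p was then 0.0627 to 0.145, so the call was lost in each of these 6 fits. The adjusted p lay between 8.52e-26 and 0.145 over the 15 alternatives. The lowest came from DESeq2 on the 18 cultures as separate samples, which counts cultures of 1 tumor as independent.

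*Bmpr1a*, the other dedicated type I BMP receptor, read 174, 105 and 106 CPM in the *Nf1*/*p53* dKO and 130, 104 and 148 CPM in *Nf1*/*Cdkn2a* dKO lines. Its lines overlapped, with a log2 fold change of −0.01 (SE 0.25, edgeR adjusted p = 0.98). Per length, *Bmpr1a* was the most abundant BMP receptor, at 20.1 CPM per kb of exon over the 6 lines, whereas *Bmpr1b* was at 2.63 CPM per kb in the *Nf1*/*p53* dKO and 0.386 CPM per kb in the *Nf1*/*Cdkn2a* dKO. *Acvr1*, the ALK2 receptor for BMPs, read 75.2, 77.8 and 86.0 against 68.5, 62.2 and 51.5 CPM. Its lines did not overlap, but the log2 fold change of −0.39 (SE 0.15) had an unadjusted p of 0.0377 and an adjusted p of 0.195 from edgeR. *Bmpr2*, the type II receptor of the BMP branch, ran from 37.5 to 102 CPM over the 6 lines, and *Acvrl1*, the endothelial ALK1 receptor, from 0.0415 to 2.76 CPM.

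**Figure D2:**
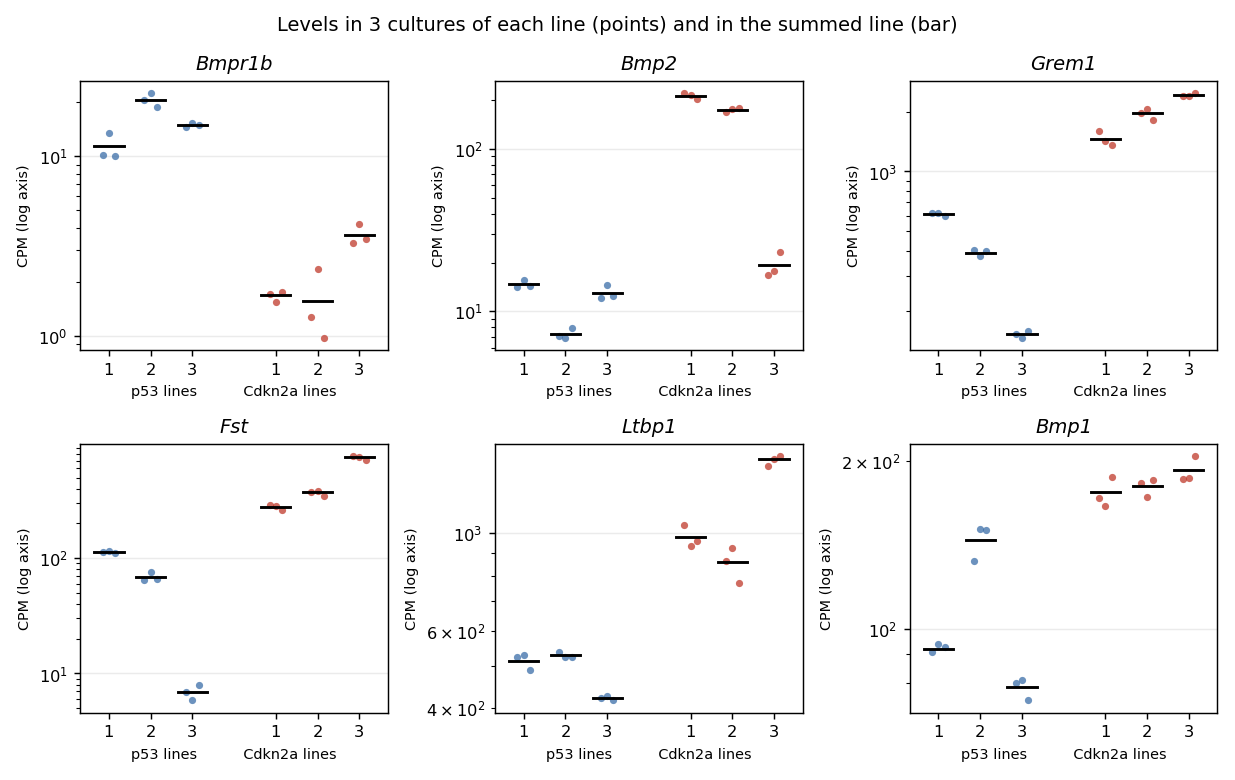
Levels of 6 members in CPM (y axis, logarithmic) in each line (x axis), where points are the 3 cultures and bars the summed line, with *Nf1*/*p53* dKO in blue and *Nf1*/*Cdkn2a* dKO in red. *Bmpr1b* lies lower and *Grem1*, *Fst*, *Ltbp1* and *Bmp1* lie higher in all 3 *Nf1*/*Cdkn2a* dKO lines, while *Bmp2* is far higher in 2 of them.

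The BMP and GDF ligands varied more between lines than any other role, with a median ratio of the highest to the lowest of the 6 lines of 33.3 over the 4 tested. *Bmp2*, a ligand of the BMP branch, read 14.8, 7.26 and 13.1 CPM in the *Nf1*/*p53* dKO and 213, 174 and 19.3 CPM in *Nf1*/*Cdkn2a* dKO lines. The lines did not overlap, although *Nf1*/*Cdkn2a* line 3 was much closer to the *Nf1*/*p53* dKO than its 2 companions. The log2 fold change was 3.53 (SE 0.85, edgeR adjusted p = 0.0844), and without that line it was 4.05 with an adjusted p of 0.0452.

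*Bmp4*, a close relative of *Bmp2*, was at a low level and shared with it the low *Nf1*/*Cdkn2a* line 3, with 0.722, 1.12 and 0.180 CPM against 2.86, 6.72 and 0.407 CPM. The groups overlapped through *Nf1*/*Cdkn2a* line 3 (log2 fold change 2.30, edgeR adjusted p = 0.263). *Bmp6*, another BMP ligand, read 14.5, 4.68 and 0.208 CPM in the *Nf1*/*p53* dKO, a range of 69.9-fold within one genotype, and 5.34, 5.47 and 4.47 CPM in *Nf1*/*Cdkn2a* dKO lines. Its log2 fold change of −0.34 (SE 1.13) reversed to 1.06 without *Nf1*/*p53* line 1, and its count is uncertain because 5.74% of its exonic bases lie opposite *Txndc5*. *Gdf11*, which signals through activin receptors, read 61.0, 35.9 and 20.3 against 72.4, 69.8 and 83.3 CPM. Its lines did not overlap, and the log2 fold change was 0.94 (SE 0.38, edgeR adjusted p = 0.207).

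The 6 other ligands of this group were below the filter. *Bmp7* had 0 counts in every library, which allows up to 3 counts or 0.0387 to 0.0481 CPM in a line, a limit for counting error only. *Bmp3*, *Bmp5*, *Gdf5* and *Gdf10* were at most 0.391 CPM in any line, and *Bmp5* and *Gdf5* are also uncertain because 46.7% and 40.3% of their exonic bases lie opposite another gene. *Gdf6* reached 1.19 CPM in *Nf1*/*p53* line 2 and at most 0.0156 CPM elsewhere.

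The TGF-β and activin ligands included one of the steadiest members and several variable ones. *Tgfb1*, the main isoform in most tissues, ran only from 52.3 to 66.0 CPM over the 6 lines (log2 fold change −0.10, SE 0.13). Per length over the 6 lines, *Tgfb3* was narrowly the highest isoform, at 12.4 CPM per kb beside 12.2 for *Tgfb1*. In the *Nf1*/*Cdkn2a* dKO, *Tgfb1* was the higher, at 11.8 against 7.62 CPM per kb. *Tgfb3* read 70.9, 86.7 and 17.6 CPM in the *Nf1*/*p53* dKO and 16.5, 19.7 and 41.1 CPM in *Nf1*/*Cdkn2a* dKO lines. *Nf1*/*p53* lines 1 and 2 were high and the other 4 lines low, so the groups overlapped (log2 fold change −1.18, SE 0.62, edgeR adjusted p = 0.313). A transcript on the opposite strand covers 7.6% of the exonic bases of *Tgfb3*, so its count is uncertain. *Tgfb2* ran from 2.65 to 16.0 CPM and was highest in *Nf1*/*p53* line 2.

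*Inhba*, which encodes the subunit of activin A, ran from 78.8 to 94.4 CPM in the *Nf1*/*Cdkn2a* dKO but read 45.9, 130 and 18.3 CPM in the *Nf1*/*p53* dKO. *Inhbb*, the activin B subunit, ran from 1.26 to 22.1 CPM, with overlap. *Inha*, whose product turns activin subunits into inhibins, read 0.245, 0.467 and 0.803 CPM in the *Nf1*/*p53* dKO and 1.33, 2.29 and 0.845 CPM in *Nf1*/*Cdkn2a* dKO lines. The groups did not overlap but nearly met, at a log2 fold change of 1.56 (SE 0.60, unadjusted p = 0.0373, edgeR adjusted p = 0.194).

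Of the proteins that store or process the ligands, *Ltbp1*, which tethers latent TGF-β to the matrix, was the most abundant at 74.3 CPM per kb over the 6 lines. It read 513, 528 and 422 CPM in the *Nf1*/*p53* dKO and 979, 859 and 1467 CPM in *Nf1*/*Cdkn2a* dKO lines. All 3 *Nf1*/*Cdkn2a* dKO lines were above all *Nf1*/*p53* dKO lines, with means of 488 ± 56.9 and 1102 ± 322 CPM (SD, n = 3 lines). The log2 fold change of 1.18 (SE 0.24) missed the threshold at an adjusted p of 0.0602 from edgeR.

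*Bmp1*, a protease that cleaves procollagens and the BMP trap Chordin rather than a ligand, read 92.1, 144 and 78.4 against 176, 180 and 193 CPM. The *Nf1*/*Cdkn2a* dKO lines lay close together above the others (log2 fold change 0.80, SE 0.24, edgeR adjusted p = 0.121). *Ltbp2*, a matrix protein of the family that does not bind TGF-β, read 61.4, 595 and 34.0 CPM against 174, 16.3 and 71.6 CPM. A single line, *Nf1*/*p53* line 2, set its log2 fold change of −1.40 (SE 1.24), which was 0.89 without that line. For *Ltbp2*, 9.34% of the exonic bases are shared with a gene on the opposite strand, and the strand setting of the counting is not given in the sources used here.

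*Tgfbi*, a secreted matrix protein named for its induction by TGF-β, read 63.1, 58.3 and 121 CPM in the *Nf1*/*p53* dKO and 27.1, 8.83 and 174 CPM in *Nf1*/*Cdkn2a* dKO lines. Line 3 was the highest of each genotype, and the *Nf1*/*Cdkn2a* dKO lines differed by 19.8-fold among themselves (log2 fold change −0.20, SE 0.99, which turned positive in 3 of the fits without a line). *Ltbp3* ran from 169 to 470 CPM and *Ltbp4* from 35.5 to 105 CPM, both with overlap.

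The receptors for TGF-β and activin varied little, with a median ratio of 1.80 between the highest and the lowest line. *Tgfbr2*, the type II receptor that binds TGF-β first, was the most abundant per length at 17.3 CPM per kb. It read 146, 117 and 150 against 127, 176 and 135 CPM, which overlap (log2 fold change 0.09, SE 0.18, edgeR adjusted p = 0.804). *Tgfbr1*, its type I partner, ran from 28.3 to 51.1 CPM, and *Tgfbr3*, the coreceptor betaglycan, from 36.2 to 113 CPM. The activin receptors *Acvr1b* (15.3 to 26.6 CPM) and *Acvr2a* (16.3 to 23.8 CPM) also overlapped, and *Acvr2a* is uncertain because 7.84% of its exonic bases lie opposite *Orc4*.

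*Acvr2b*, the second type II activin receptor, was scarce and read 0.593, 0.198 and 1.04 CPM in the *Nf1*/*p53* dKO and 2.17, 2.48 and 1.52 CPM in *Nf1*/*Cdkn2a* dKO lines. The lines did not overlap (log2 fold change 1.75, SE 0.62, edgeR adjusted p = 0.171). *Eng*, the coreceptor endoglin typical of endothelium, was at 3.03 to 4.55 against 2.42 to 2.58 CPM. Its lines did not overlap either, with an unadjusted p of 0.138.

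Among the extracellular antagonists, *Grem1* and *Fst* had no overlap between genotypes, and neither passed the adjusted threshold. *Grem1*, which binds BMP2, BMP4 and BMP7, read 609, 391 and 152 CPM against 1459, 1961 and 2432 CPM. The means were 384 ± 229 and 1951 ± 487 CPM (SD, n = 3 lines), with a log2 fold change of 2.34 (SE 0.50, edgeR adjusted p = 0.0678). At 281 CPM per kb over the 6 lines it was the most abundant member per length, at 92.6 CPM per kb in the *Nf1*/*p53* dKO and 470 CPM per kb in the *Nf1*/*Cdkn2a* dKO. *Fst*, which encodes the activin trap follistatin, read 114, 68.6 and 6.88 CPM against 279, 372 and 748 CPM. Line 3 was thus the lowest *Nf1*/*p53* dKO line and the highest *Nf1*/*Cdkn2a* dKO line, for *Fst* as for *Grem1*, and the log2 fold change of *Fst* was 2.89 (SE 0.94, edgeR adjusted p = 0.145).

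*Grem1* and *Fst* were called when DESeq2 was run on the same 6 sums (adjusted p = 0.000108 and 0.0047) and when limma-voom was run on the 18 cultures with a random effect for line (adjusted p = 2.76e-06 and 9.10e-05). *Ltbp1* and *Bmp2* were called by both of these as well. In all, DESeq2 on the 6 sums called 5 members higher and 1 lower, while it called 5.20% and 7.40% of the genes that edgeR tested. Limma-voom called 7 members higher and 2 lower, and 8.73% and 7.84% of all genes it shared with edgeR. The remaining antagonists overlapped between genotypes. *Fstl1*, a secreted follistatin-like protein, ran from 148 to 935 CPM and *Chrd*, the BMP trap Chordin, from 0.526 to 4.11 CPM. *Fstl3* ran from 4.21 to 12.8 CPM and is uncertain, because 47.3% of its exonic bases lie opposite *Prss57*. *Nog*, the BMP trap Noggin, was below the filter, with 1.99 CPM in *Nf1*/*p53* line 2 and at most 0.159 CPM in any other line.

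The Smads that carry the signal were the steadiest role, with a median ratio of 1.40 between the highest and the lowest line beside 2.17 over all genes tested and 3.36 over the tested members. *Smad4*, the common partner and the most abundant of them per length at 21.9 CPM per kb, read 74.6, 86.1 and 86.1 against 82.1, 80.8 and 77.1 CPM. Its lines overlapped, with a log2 fold change of −0.04 (SE 0.12, edgeR adjusted p = 0.871). *Smad3*, of the TGF-β branch, read 76.5, 89.9 and 88.3 against 51.2, 58.8 and 75.8 CPM. The lines just failed to overlap, and the log2 fold change was −0.46 (SE 0.18, unadjusted p = 0.0409, edgeR adjusted p = 0.203). *Smad2*, its partner in that branch, ran from 49.8 to 62.9 CPM. In the BMP branch, *Smad1* ran from 32.3 to 46.0 CPM and *Smad5* from 77.6 to 106 CPM. *Smad9*, of the same branch and role, was not steady. It ran from 0.764 to 16.9 CPM, a ratio of 22.1, and is described below.

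**Figure D3:**
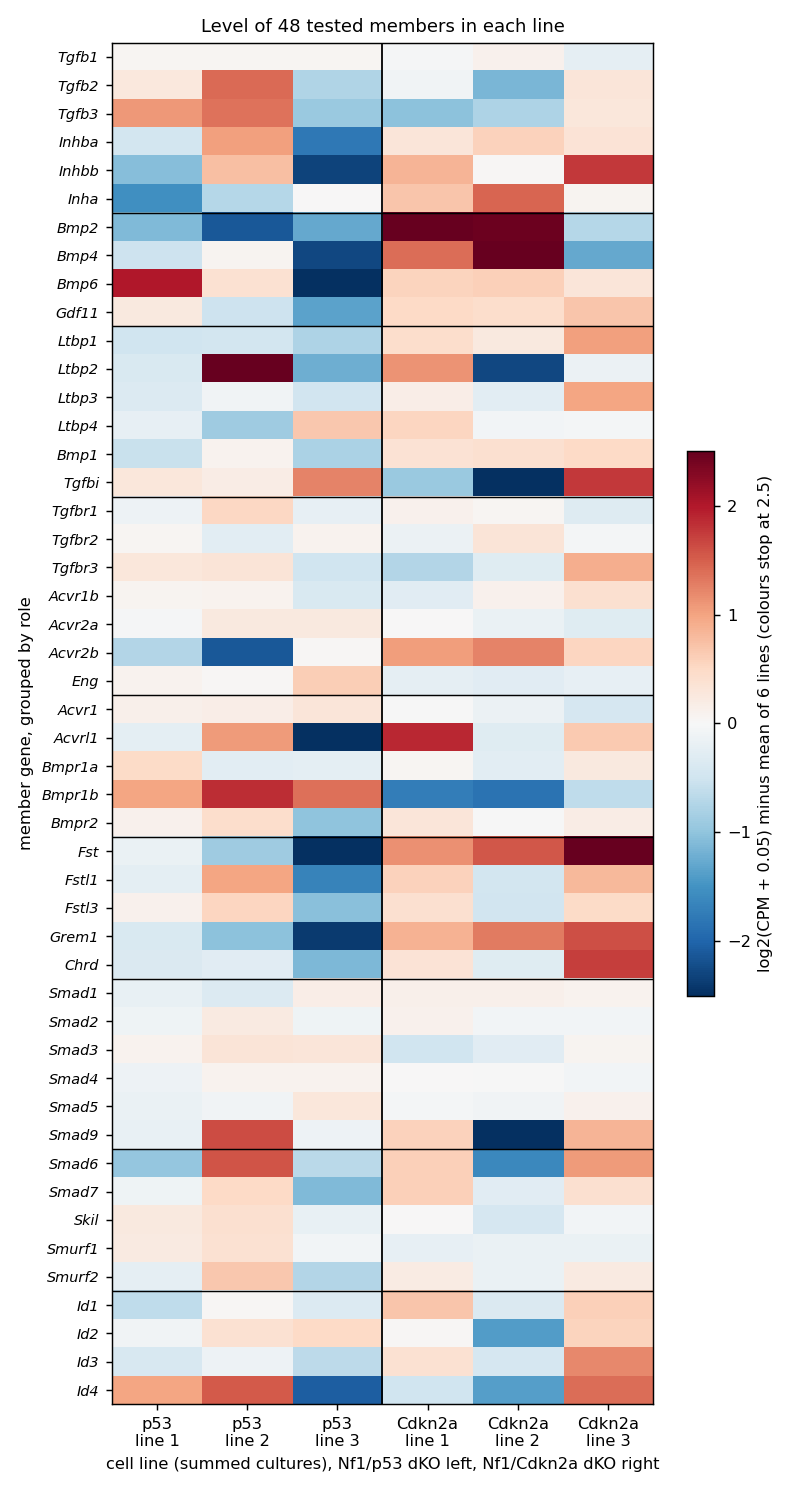
Level of each tested member (y axis, grouped by role) in each of the 6 lines (x axis), as the log2 of CPM plus 0.05 minus the mean over the 6 lines, red above and blue below, with colours stopping at 2.5. Most rows of the signal-carrying Smad and TGF-β receptor blocks are pale, but *Smad9* and *Acvr2b* there are strongly coloured. Many rows of the ligand and antagonist blocks are strongly coloured, although *Tgfb1* is pale. *Nf1*/*p53* line 3 and *Nf1*/*Cdkn2a* line 2 hold many blue cells.

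Within one genotype, 9 of the 48 tested members differed by 10-fold or more between the highest and the lowest line. Over all 6 lines, which adds the difference between genotypes, 13 did so and 15 differed by less than 2-fold. Among the *Nf1*/*p53* dKO lines, line 2 was the highest for 29 of the 48 members (60.4%, beside 30.6% of all genes) and line 3 the lowest for 28 (58.3%, beside 38.7%). Among the *Nf1*/*Cdkn2a* dKO lines, line 3 was the highest for 26 (54.2%, beside 38.5%) and line 2 the lowest for 26 (54.2%, beside 35.8%). These are counts over 3 lines and were not tested.

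*Smad6*, *Smad7*, *Smad9* and the 4 *Id* genes, a group put together after their values were seen, followed this order of lines in part. *Nf1*/*Cdkn2a* line 2 was the lowest of its genotype for 7 of the 7, and *Nf1*/*p53* line 2 the highest of its genotype for 6 of the 7, but *Nf1*/*p53* line 3 was the lowest for 3 and line 1 for 4. *Smad9*, the BMP-branch Smad that is itself induced by BMP, read 4.77, 16.9 and 4.97 CPM in the *Nf1*/*p53* dKO and 8.09, 0.764 and 9.88 CPM in *Nf1*/*Cdkn2a* dKO lines. *Smad6*, the inhibitory Smad of the BMP branch, read 2.99, 17.6 and 3.65 against 8.87, 1.89 and 12.3 CPM. Both genes were high in *Nf1*/*p53* line 2 and low in *Nf1*/*Cdkn2a* line 2, the genotypes overlapped, and the adjusted p from edgeR was 0.777 for *Smad9* and 0.973 for *Smad6*.

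*Smad7*, the inhibitory Smad shared by both branches, read 69.4, 105 and 34.7 against 112, 61.2 and 97.9 CPM. *Id3*, the *Id* gene with the highest level per length at 133 CPM per kb, read 162, 195 and 135 CPM in the *Nf1*/*p53* dKO and 279, 160 and 494 CPM in *Nf1*/*Cdkn2a* dKO lines. *Nf1*/*Cdkn2a* lines 1 and 3 were above all others and line 2 was inside the range of the *Nf1*/*p53* dKO (log2 fold change 0.92, SE 0.40, edgeR adjusted p = 0.239). *Id1* had the same pattern, with 85.0, 135 and 105 against 215, 103 and 201 CPM (log2 fold change 0.68, adjusted p = 0.266).

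*Id4* read 14.7, 21.5 and 1.72 CPM in the *Nf1*/*p53* dKO and 5.18, 2.81 and 19.5 CPM in *Nf1*/*Cdkn2a* dKO lines. It differed by 12.5-fold within the *Nf1*/*p53* dKO, with line 3 the low one, and overlapped between genotypes (log2 fold change −0.46, SE 1.00). *Id2* ran from 21.3 CPM in *Nf1*/*Cdkn2a* line 2 to 82.6 CPM in *Nf1*/*Cdkn2a* line 3. Of the other regulators, *Smurf1*, a ubiquitin ligase that marks Smads and receptors for degradation, read 161, 179 and 130 against 119, 123 and 121 CPM. Its lines did not overlap, and the log2 fold change of −0.37 (SE 0.15) had an unadjusted p of 0.0462 and an adjusted p of 0.215 from edgeR. *Smurf2*, its relative, ran from 44.3 to 118 CPM and *Skil*, the corepressor SnoN, from 56.1 to 99.9 CPM, both with overlap.

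**Figure D4:**
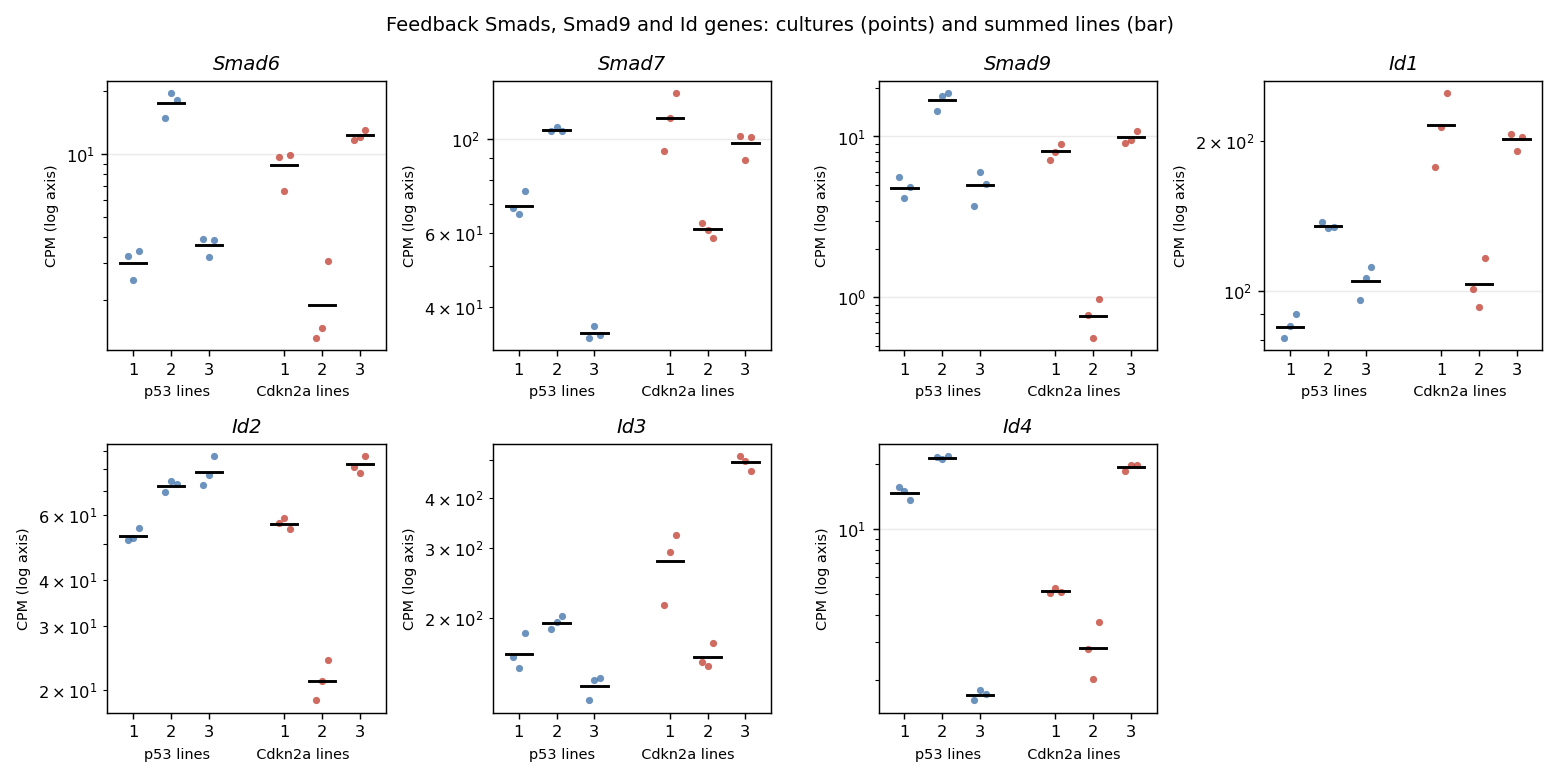
Levels of *Smad6*, *Smad7*, *Smad9* and the 4 *Id* genes in CPM (y axis, logarithmic) by line (x axis), where points are the 3 cultures and bars the summed line, with *Nf1*/*p53* dKO in blue and *Nf1*/*Cdkn2a* dKO in red. *Nf1*/*Cdkn2a* line 2 is the lowest of its genotype in all 7 panels. Cultures of different lines overlap in some panels. For *Id1*, cultures of *Nf1*/*Cdkn2a* line 1 (178 to 249 CPM) span those of line 3 (191 to 207 CPM), and for *Smad7* the same lines overlap.

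Beyond the members, 59 other genes of the pathway were listed, of which 43 were tested. No gene of the list passed the adjusted test upward and 1 passed downward, while 4 were higher and 8 lower at an unadjusted p under 0.05, beside 9.81% and 12.5% of all genes. The gene that passed was *Dcn*, the proteoglycan decorin, which binds TGF-β in the matrix and also marks fibroblasts. It read 119, 104 and 934 CPM in the *Nf1*/*p53* dKO and 3.40, 6.59 and 4.29 CPM in *Nf1*/*Cdkn2a* dKO lines, and fell by 6.34 on the log2 scale (edgeR adjusted p = 0.0470). Its lines did not overlap. Of the 6 fibroblast markers, which hold no *Dcn*, only *Lum* had no overlap. It was highest in the same line as *Dcn* (17.0, 1.41 and 65.4 CPM against at most 0.0433 CPM). The other 5 overlapped, as did the sums of the list, and 2 of the 6 had a positive log2 fold change. The part of these markers in this result was not tested. The call held without *Nf1*/*p53* line 3 (log2 fold change −4.55, adjusted p = 0.032) and was lost without any other line (adjusted p 0.0541 to 0.153). DESeq2 on the 6 sums called 3 genes of the list higher and 3 lower, and *Dcn* was not among them. One of those called lower, *Cer1*, was not tested by edgeR. Of the genes that edgeR tested, DESeq2 called 5.20% and 7.40%. The highest log2 fold change of the list was that of *Bmper*, a secreted BMP regulator, at 1.64 (16.7, 38.1 and 11.98 against 45.4, 66.4 and 97.2 CPM, edgeR adjusted p = 0.122).

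All 25 listed TGF-β target genes were tested. By edgeR 0 passed the adjusted threshold, while 5 were higher and 2 lower at an unadjusted p under 0.05, beside 9.81% and 12.5% of all genes. DESeq2 on the 6 sums called 2 higher and 2 lower, beside 5.20% and 7.40%. The list ran from *Cnn1*, the smooth muscle protein calponin, at a log2 fold change of −3.18 to *Col4a1*, a basement membrane collagen, at 2.06. *Cnn1* read 32.1, 170 and 2.39 CPM against 6.61, 0.173 and 15.7 CPM, which overlap. *Col4a1* read 180, 733 and 28.2 CPM against 1103, 1583 and 1249 CPM, which do not overlap (edgeR adjusted p = 0.28). *Nf1*/*p53* line 2 was the highest of its genotype for 20 of the 25 (80.0%) and line 3 the lowest for 21 (84.0%), as they were for most of the members. *Nf1*/*p53* line 2 was also the line with the most *Ltbp2*, *Tgfb2*, *Tgfb3* and *Inhba*, but it was the highest of its genotype for 29 of the 48 tested members. *Tgfb1* was level over the 3 *Nf1*/*p53* dKO lines, at 63.7, 63.5 and 63.8 CPM. A link between these genes and the target genes was not tested.

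Of 12 listed BMP target genes, 9 were tested and 1 passed, beside 1.80% of all genes. *Dlx3*, a homeobox gene of the developing limb, skin and skull, read 5.10, 13.7 and 38.7 CPM in the *Nf1*/*p53* dKO and 0.160, 0.159 and 0.156 CPM in *Nf1*/*Cdkn2a* dKO lines. The lines were far apart, with a log2 fold change of −6.90 (edgeR adjusted p = 0.0298). That call held without *Nf1*/*p53* line 1 or 3 (adjusted p = 0.0323 and 0.038) and was lost without any other line (0.0659 to 0.124). Without adjustment 1 gene of the list was higher and 4 were lower, beside 9.81% and 12.5% of all genes. The one higher was *Gata2*, a transcription factor best known from blood and endothelium, which had the highest log2 fold change at 1.83 (13.9, 16.5 and 34.6 against 91.9, 41.3 and 97.0 CPM, edgeR adjusted p = 0.0918). *Dlx3* and *Gata2* thus lay on opposite sides, and the median over the 9 was −0.71. Of these 9, the *Nf1*/*Cdkn2a* dKO lines lay wholly above for 1 and wholly below for 5, beside 14.8% and 16.6% of all genes. DESeq2 on the 6 sums called 1 of the 12 higher and 3 lower, beside 5.20% and 7.40% of the genes that edgeR tested. These counts cover all 12 genes, of which edgeR tested 9, so they and the shares rest on different gene sets.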

How the data were processed

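RNA-seq was run on 18 libraries from 6 mouse MPNST cell lines, 3 per genotype, in 3 cultures each. The authors deposited raw counts, integers that were not normalized, for each gene in each library. The submitters' processing notes name CASAVA, STAR 2.5, DESeq2 1.14.1 and the builds GRCm38 and mm10, with no roles. The counting tool, its strand setting and the annotation are not given in the sources used here, and members with at least 5% of their exonic bases opposite another gene are named as uncertain. Cultures were summed per line, low genes were removed with filterByExpr (10 counts at least, 15 in total), TMM gave the scaling, and genotypes were tested with the quasi-likelihood test of edgeR 4.0.16 in R 4.3.3, with a call at an adjusted p under 0.05. No pair of sister cultures agreed within sampling noise (chi-square per degree of freedom 3.50 to 27.1). Levels per length divide CPM by the exonic kilobases of GENCODE M21, and 34490 of the 35275 genes matched that annotation. The steps were tested on simulated data. Alternatives used limma 3.58.1 and DESeq2 1.42.0, other scalings and filters, a block on line number, and fits without each line in turn.

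The members and lists were chosen with earlier results of these data known, so lists are described by counts and carry no test. Every member is named. Values in each line are given for members with an unadjusted p under 0.05, for members without overlap and a log2 fold change of at least 1 in size, for the member of each role with the highest level per length, and for members differing at least 10-fold within a genotype with at least 10 CPM in the highest line. Of other lists, called genes and the highest and lowest fold changes are named, and some further genes were added after their values were seen. The set of RefSeq windows used here held none for 16 members. Counts of 0 and their limits cover counting error only. Some single-gene values are not reported here.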

Additional observations from a re-analysis of the deposited data

How the results depend on the processing

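The edgeR test on 6 lines called 274 genes (97 higher and 177 lower), 1 member and 2 genes of the pathway and target lists. With the 18 cultures as separate samples, which counts cultures of 1 tumor as independent, edgeR called 6096 genes, 23 members and 41 list genes, and DESeq2 7186, 25 and 47. Limma-voom with a random effect for line called 2173, 9 and 20, and DESeq2 on the 6 lines 2060, 6 and 14. Raw total scaling called 423 genes (86 higher and 337 lower), moved the median log2 fold change of all genes by −0.13 and turned *Tgfbr2* to −0.048. No filter and DESeq2's size factors called 3 list genes. The replicate block on line number called 0 genes, 0 members and 0 list genes, with 2740 genes at an unadjusted p under 0.05. Same-numbered lines correlated at −0.12, −0.13 and −0.08, so the numbers do not pair them. The block turned *Bmp6* to 0.77 and *Bmpr1a* to 0.012, and limma-voom turned *Bmp6* to 1.04. With 1 line left out, 0 to 172 genes, 0 to 1 members and 0 to 2 list genes were called. The 0 came without *Nf1*/*Cdkn2a* line 1 (2668 genes at an unadjusted p under 0.05), and the 1 member was *Bmp2*, without *Nf1*/*Cdkn2a* line 3. Leaving out a line reversed *Bmp6* (−0.91 to 1.06), *Ltbp2* (−2.38 to 0.89), *Tgfbi* (−2.16 to 0.33), *Tgfbr2* (−0.061 to 0.19), *Bmpr1a* (−0.13 to 0.27), *Smad4* (−0.11 to 0.0071) and *Id4* (−1.65 to 0.17), none of them called. The causes were not tested. The median over members stayed within its spread, from −0.08 to 0.32 with a line left out. With 3 lines per genotype, precision is set by the spread between lines rather than by depth.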

Other observations

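Among the marker genes of other cell types, 3 passed the adjusted threshold by edgeR, all lower in the *Nf1*/*Cdkn2a* dKO. *Myf5*, a factor of muscle determination, was at 28.0, 24.2 and 27.7 CPM in *Nf1*/*p53* lines and at most 0.0156 CPM in *Nf1*/*Cdkn2a* lines. *Cdh15*, a cadherin of muscle precursors, was at 34.2, 27.9 and 97.6 against 0.273, 0.332 and 0.125 CPM, and *Tek*, the endothelial angiopoietin receptor, at 0.412, 0.566 and 1.08 against 0.0642, 0.0721 and 0.0782 CPM. *Myod1*, with the lowest fitted value of the muscle list, was at 1.75, 0.269 and 204 CPM and had 0 counts in *Nf1*/*Cdkn2a* lines. *Nf1*/*p53* line 3, which held most of it, was also the line with the least *Fst*, *Grem1* and *Smad7*. That line was the lowest of its genotype for 58.3% of the tested members, and a link with *Myod1* was not tested.

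Of the remaining extremes of each marker list, *Lum* of the fibroblast list was at 17.0, 1.41 and 65.4 CPM against at most 0.0433 CPM, while *Dpt* had the highest log2 fold change there at 1.09. In the Schwann cell list *Ngfr* was lowest at −5.40, with 64.3 CPM in *Nf1*/*p53* line 2. *Nf1*/*p53* line 2 was the line with the most *Smad6* and *Smad9*, but it was the highest of its genotype for 60.4% of the tested members. A link with *Ngfr* was not tested. *Cdh5* was the highest endothelial gene at 1.61. The leukocyte list ran from *Csf1r* at −0.76 to *Ptprc* at 1.06, and *Des* closed the muscle list at −7.47. None of these passed the adjusted threshold by edgeR.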
